A study of Mus musculus with 2 samples.

Results

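Heat shock proteins and chaperonins are the proteins that fold other proteins, keep them from aggregating and hand damaged ones over for degradation. Their genes were taken from long-read RNA sequencing of mouse heart by symbol: names beginning Hspa, Hspb, Hspd, Hspe, Hsph or Hsp9, names beginning Dnaja, Dnajb or Dnajc, Cct2 to Cct8, Tcp1 and Hyou1, without Hspbap1. The GENCODE M21 annotation holds 99 such genes, and 77 of them had a read in at least 1 library, of 16310 annotated genes with reads in all. The hearts came from female B6CASTF1/J mice, the F1 hybrid of the B6 and CAST strains, at 14 days of age, with no treatment named. There was 1 group of 2 libraries, replicates 1 and 2, each from 2 µg of total RNA of whole heart tissue. No condition was compared, so the values describe the chaperones of the heart at this age and how far the libraries differed. By the labels these are biological replicates, but separate animals are not clearly named, so the spread between them may be technical and p-values cover counting error only.

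Most chaperones work in relays. Proteins of the HSP70 class bind short stretches of unfolded chains and release them in a cycle driven by ATP; J proteins, encoded by the Dnaj genes, deliver clients and start that cycle, and HSP110 proteins act as exchange factors that restart it. HSP90 receives partly folded clients such as kinases and receptors, small heat shock proteins hold clients without using ATP, and the chaperonins are ring-shaped chambers in which actin, tubulin and mitochondrial enzymes fold. The heart, which beats against constant mechanical load, is known for small heat shock proteins that associate with the sarcomere.

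Levels are given in CPM, a gene's reads scaled to the total of the library outside the spike-ins. In long-read sequencing a read stands for a transcript copy, so CPM is not divided by length, and the mean length of the transcript models is given beside the main comparisons of levels between genes. Replicate 1 held 884718 reads outside the spike-ins and replicate 2 held 959334, so that a single read was worth 1.13 and 1.04 CPM. For a gene at 0 the upper limit is 3 reads, which is 3.39 and 3.13 CPM. Markers of cardiomyocytes summed to 50702 and 49904 CPM, and all 6 were detected. Erythroid markers summed to 12447 and 10867 CPM, fibroblast markers to 6225 and 6010, endothelial markers to 419 and 424 and macrophage markers to 180 and 146. Both erythroid markers were called lower in replicate 2, Hba-a1 by a log2 ratio of -0.20 and Hbb-bs by -0.19 (adjusted p = 2.35e-13 and 4.88e-06, exact binomial test over all genes). Cardiomyocyte markers were called in both directions: Actc1 (log2 ratio 0.14) and Pln (0.20) higher in replicate 2, Nppa (-0.31) and Ckm (-0.12) lower. The largest adjusted p among these was 0.000294 in the same exact binomial test, and Myh6 and Tnni3 were not called. All 3 skeletal muscle markers were at 0, and of the 3 liver markers only Alb had a read, in replicate 2. The 4 lung markers summed to 133 CPM in replicate 1 and 9.38 in replicate 2, nearly all of it Scgb1a1, with Sftpb at 0 in both. Scgb1a1 was called lower in replicate 2, with a log2 ratio of -4.10 (adjusted p = 6.83e-24, exact binomial test). The part of lung or blood RNA in the results was not tested. In tissue RNA, fewer cells of a type and less RNA per cell cannot be told apart.

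The members together held 9567 reads in replicate 1 and 10334 in replicate 2, which was 10793 ± 29.4 CPM (SD, n = 2). Detected, meaning at least 3 reads in each library, were 69 genes. Their order was nearly the same in both libraries (Spearman's rho 0.982 over these 69 genes, a description with no test, since both libraries sample the same group). HSP70 and HSP110 genes were the largest group at 3249 ± 85.5 CPM, followed by the CCT subunits at 1759 ± 43.5, the small heat shock proteins at 1312 ± 45.4, the class C J proteins at 1155 ± 11.6 and HSP90 at 1030 ± 21.6. Class A J proteins stood at 884 ± 26.0 CPM, the mitochondrial chaperonin at 781 ± 5.55 and class B J proteins at 562 ± 16.0. The 4 class A genes thus held more reads than the 9 detected class B genes. These sums and their order hold for the chosen symbols alone. The symbols leave out Cryab, a small heat shock protein at 671 and 759 CPM in replicates 1 and 2. They also leave out Trap1, a mitochondrial HSP90, at 274 and 271 CPM.

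**Figure D1:**
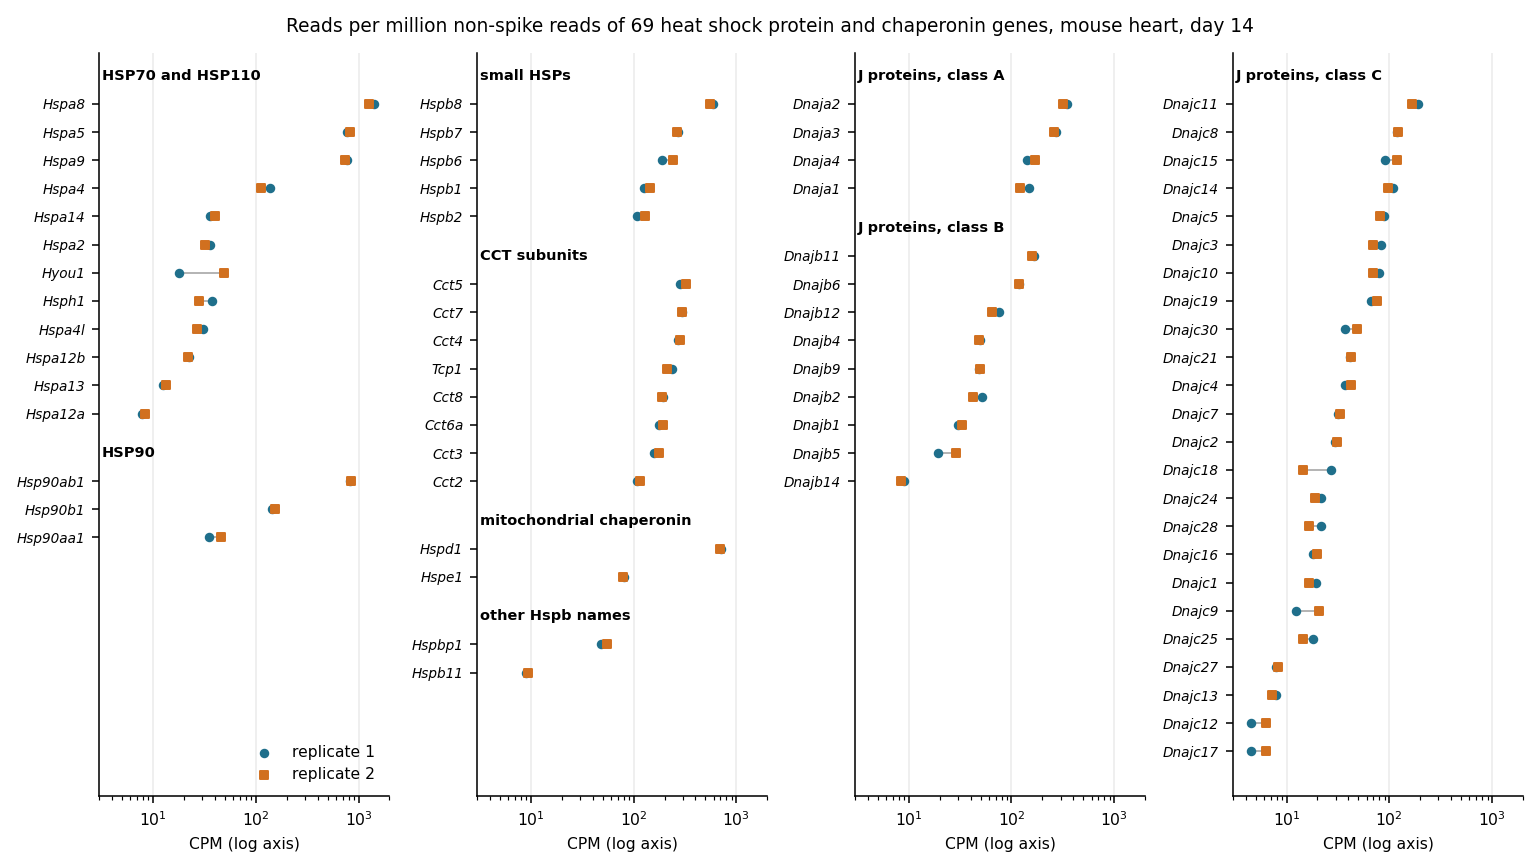
Level of each of the 69 detected genes in CPM (log axis), by role; circles are replicate 1 and squares replicate 2, joined by a line. The libraries lie close together for most genes, and Hyou1 shows the widest gap among genes with a mean above 30 CPM, from 18.1 to 49.0 CPM.

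Some of these genes are annotated with near-identical copies, and in the case of Hspa8 the copy held as many reads as the gene. The coding sequence of the leading annotated transcript was compared with every other annotated transcript, and a copy counted at 95% identity over at least 80% of that sequence. Hspa8, which encodes the constitutive cytosolic HSP70, had 5 copies, all processed pseudogenes. One of them, Gm15459 (chr5:5781615-5783555, minus strand), held 1207 and 1258 reads, against 1253 and 1218 on Hspa8 itself. Of the reads on this copy, 1206 and 1256 were on its annotated single-exon model. Over the 1938 coding bases the copy differs from Hspa8 by the 5 substitutions G114A, C414T, C549T, G1222A and C1440T, counted from the first base of the start codon, with the Hspa8 base first. The tables hold counts and no reads, so whether those reads came from Hspa8 transcripts cannot be told apart here. The other 4 copies of Hspa8 had no reads. Gm15459 and Hsp25-ps1 were singled out after their values were seen.

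Hspb1, which encodes the small heat shock protein HSP25, showed the same to a smaller extent. Its copy Hsp25-ps1 on chromosome 13 held 35 and 31 reads, against 113 and 140 on Hspb1. The copy differs from the 627 coding bases of Hspb1 by 4 substitutions, C6T, G559A, T561C and T609C. With the copies added, Hspa8 would stand at 2681 ± 141 CPM and Hspb1 at 173 ± 7.75, and the whole set at 12167 ± 72.0. Hspa1a and Hspa1b are copies of each other, and no pseudogene that met the copy limits for Dnaja1, Hsp90aa1, Hspd1 or Dnajc17 had a read. Dnajc19-ps, a copy of Dnajc19, had 1 read in replicate 1, and AC117239.2, a copy of Hspe1, had 1 in replicate 2. Hspd1-ps4, a pseudogene that did not meet the limits, had 1 read in replicate 2.

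HSP70 proteins divide by compartment, and 3 genes carried most of the group. Hspa8 had 1416 CPM in replicate 1 and 1270 in replicate 2. Hspa5, the HSP70 of the endoplasmic reticulum, also called BiP, had 765 and 836 CPM, and Hspa9, the HSP70 of mitochondria, had 779 and 742. All 3 stood above every other HSP70 gene in both libraries, on models of 2375 to 3373 bases. Hspa4, an HSP110-type exchange factor, followed at 139 and 113 CPM and Hspa14 at 36.2 and 40.7.

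Hspa1a and Hspa1b, the strongly heat-inducible HSP70 genes, were near the floor in these hearts. Hspa1a had 3 and 2 reads and Hspa1b had 4 and 2. Their coding sequences are 99.6% identical, so the split between them is uncertain, and their reads summed to 7 and 4. Hspa8 accounted for 99.4% of the combined reads of Hspa8, Hspa1a and Hspa1b in replicate 1 and 99.7% in replicate 2. Other genes known to be induced by heat stood above the floor. Dnajb1, a J protein, had 30.5 and 33.4 CPM, Hsph1, the inducible HSP110, had 37.3 and 28.1, and Hsp90aa1, the inducible cytosolic HSP90, had 35.0 and 45.9.

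Promoter windows of RefSeq, 250 bases before to 50 bases after each start on GRCm38.p6, were searched for the core of the heat shock element, written GAANNTTC or TTCNNGAA, which is its own reverse complement. Of the 99 members, 68 matched a window, and 20 of these held the core, or 29.4%, while 17.0% of all 27025 genes did. The stretches below show the core in capitals for a gene near the floor and for genes with many reads, since both carried it. Hspd1 and Hspe1 are neighbours on opposite strands whose starts overlap, and the match printed for Hspd1 lies in the window of Hspe1 as well.
Hspa1b (chr17:34959317-34959360, minus strand): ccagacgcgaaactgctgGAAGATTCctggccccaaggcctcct
Dnaja4 (chr9:54699451-54699494, plus strand): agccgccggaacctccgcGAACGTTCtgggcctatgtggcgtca
Hspb1 (chr5:135887804-135887847, plus strand): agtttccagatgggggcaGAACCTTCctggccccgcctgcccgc
Hspd1 (chr1:55088046-55088089, minus strand): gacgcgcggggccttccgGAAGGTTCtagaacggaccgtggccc
A match is a description and not a measured binding site.

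Among the 3 HSP90 genes of the chosen symbols, the constitutive gene led. Hsp90ab1 had 834 and 845 CPM, Hsp90b1, the form of the endoplasmic reticulum, had 146 and 154, and Hsp90aa1 was lowest at 35.0 and 45.9. Trap1, the mitochondrial HSP90 outside those symbols, lay between Hsp90ab1 and Hsp90b1 in both libraries, at 274 and 271 CPM. Hsp90ab1 made up 96.0% of the reads of the cytosolic pair in replicate 1 (exact 95% interval 94.3 to 97.2) and 94.9% in replicate 2 (93.2 to 96.2). Both shares lay above 50% in a two-sided exact binomial test (adjusted p = 6.87e-176 and 1.16e-182, Benjamini-Hochberg adjustment over 16 pairs in both libraries). The mean model was 2432 bases for Hsp90ab1 and 3112 for Hsp90aa1, and 17.6 ± 2.44% of the Hsp90aa1 reads were on models lacking part of the annotated transcript.

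The same test was applied to all 16 pairs. In 15 of them both genes had reads, and 12 of these lay on the same side of 50% with an adjusted p under 0.05 in both libraries; in the other pair Cct6b was at 0. Hspa4, with a mean model of 4220 bases, held 82.0% and 80.6% of the reads it shared with Hspa4l, at 8315 bases. It held 79.4 ± 0.816% (SD, n = 2) of those shared with Hsph1. Hspa4l and Hsph1 are HSP110-type genes too. Dnaja2 outnumbered Dnaja1, both cytosolic J proteins that work with HSP70, on mean models of 2876 and 3331 bases, and the share of Dnaja1 was 30.0% and 27.3%. Dnajb6, which keeps aggregation-prone proteins soluble, held 69.5% and 73.4% of its pair with Dnajb2. Both libraries gave the same side in each of these.

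Of the remaining pairs, Dnaja1 against Dnaja4, Dnajb1 against Dnajb4 and Hspa9 against Hspd1 missed the threshold in at least 1 library, so their shares are given as values. Dnaja1 held 51.0% of its pair with Dnaja4 in replicate 1 (44.7 to 57.3) and 41.5% in replicate 2 (35.7 to 47.6), and the second share passed (adjusted p = 0.00666, exact binomial test). Dnajb1 held 38.0% and 41.0% of its pair with Dnajb4. Hspa9 held 52.5% (49.8 to 55.2) and 51.5% (48.8 to 54.2) of the reads shared with Hspd1, both mitochondrial. Hspa9 outnumbered its J protein Dnaja3, which held 25.8% and 25.7% of their reads.

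Among the Hspb genes, Hspb8 had the most reads; its product forms a complex with Bag3 that sends damaged proteins to autophagy. Hspb8 had 585 and 560 CPM, Hspb7, a cardiac and muscle form, had 268 and 262, Hspb6 had 189 and 242, and Hspb1 had 128 and 146. Cryab, a small heat shock protein outside the symbols chosen, stood higher than Hspb8 in both libraries, at 671 and 759 CPM. Hspb7 held 31.4% and 31.9% of the reads it shared with Hspb8, on mean models of 2767 and 1812 bases. Hspb6, with a mean model of 1408 bases against 898 for Hspb1, held 59.6% and 62.4% of its pair with Hspb1 (adjusted p = 0.00184 and 2.72e-06, exact binomial test). With the reads of Hsp25-ps1 added to Hspb1, that share was 53.0% and 57.6%, and replicate 1 no longer passed (adjusted p = 0.321).

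The CCT chaperonin of the cytosol is a double ring that carries each of 8 different subunits once per ring. Their genes did not hold equal shares of the reads. Cct5 had 285 and 326 CPM, Cct7 297 and 295, and Cct4 270 and 281. Cct2 was lowest at 107 and 117 CPM. The 8 genes together held 1529 and 1717 reads, and an even split would give each 12.5%.

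Cct5 held 16.5% in replicate 1 and 18.2% in replicate 2, Cct7 17.2% and 16.5% and Cct4 15.6% and 15.7%, all above 12.5% in both libraries (two-sided exact binomial test, largest adjusted p = 0.000566 over subunits and libraries). Cct2 held 6.21% and 6.52% (adjusted p = 4.65e-15 in both), Cct3 9.16% and 9.84% (largest adjusted p = 0.00109) and Cct6a 10.3% and 10.8% (largest adjusted p = 0.0461), all below it. Tcp1 (13.7% and 11.8%) did not pass in either library and Cct8 (11.2% and 10.5%) passed in replicate 2 alone. Cct7 and Cct5 changed places between the libraries and their intervals overlapped, so the order at the top was not resolved. The mean models of the 8 genes ran from 1845 to 2476 bases.

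**Figure D2:**
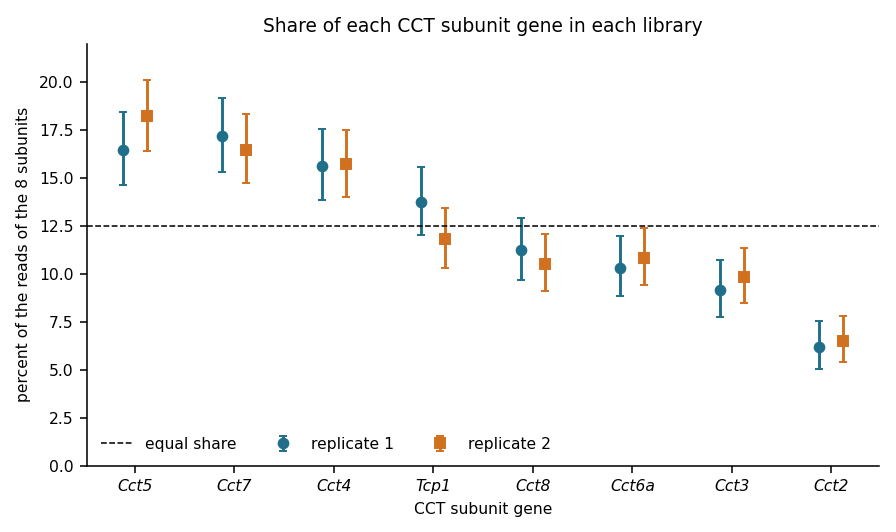
Share of each CCT subunit gene in the reads of all 8, in percent, with exact 95% intervals that cover counting error only; circles are replicate 1, squares replicate 2, and the dashed line is an equal share of 12.5%. Cct5, Cct7 and Cct4 lie above the line in both libraries and Cct2 lies lowest at 6.21% and 6.52%.

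The mitochondrial chaperonin has a barrel, HSP60, encoded by Hspd1, and a lid, HSP10, encoded by Hspe1. Hspd1 had 704 and 698 CPM and Hspe1 had 80.3 and 78.2. Hspd1 held 89.8% and 89.9% of the reads of the pair (exact 95% intervals 87.3 to 91.9 and 87.5 to 92.0). The mean model of Hspe1 was 781 bases and that of Hspd1 2317, and the part of transcript length in this ratio was not tested. The share of reads on annotated models was 66.2% for Hspd1 as a mean of both libraries, because of the unannotated form described below, while Hspe1 had 71 of 71 and 73 of 75 reads on them.

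J proteins start the HSP70 cycle and give it its specificity. In class A, Dnaja2 had 344 and 320 CPM, Dnaja3, which is mitochondrial, 270 and 256, Dnaja4 141 and 169 and Dnaja1 147 and 120. In class B, Dnajb11 of the endoplasmic reticulum had 167 and 157 CPM, Dnajb6 119 and 118 and Dnajb12, anchored in the membrane of the endoplasmic reticulum, 75.7 and 64.6. In class C, Dnajc11 of mitochondria had 190 and 166 CPM, Dnajc8 118 and 122 and Dnajc15, of the mitochondrial inner membrane, 90.4 and 118.

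Among the 28 annotated class C genes, 24 were detected. The 22 members without any read were 13 pseudogenes and 9 protein-coding genes: Dnajb3, Dnajb7, Dnajb8, Dnajc5b, Dnajc5g, Dnajc6, Hspb9, Cct6b and Cct8l1. Cct6b, a relative of Cct6a known from testis, was listed at 0 in both libraries, so Cct6a held all 158 and 186 reads of their pair. The lower limits of its share were 97.7% and 98.0%.

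The one member whose total reads differed between the libraries encodes a chaperone of the endoplasmic reticulum. Hyou1, also called GRP170, an HSP110-type exchange factor for Hspa5, had 16 reads in replicate 1 and 47 in replicate 2, or 18.1 and 49.0 CPM. The log2 ratio of replicate 2 over replicate 1 was 1.44 with an exact 95% interval from 0.59 to 2.36 (adjusted p = 0.0261, two-sided exact binomial test given the library totals, Benjamini-Hochberg adjustment over 9907 genes with at least 10 reads). It was the only member called of 69 tested, while 1.69% of all genes tested were called, so the members' count did not stand out from that background. With annotated models alone, Hyou1 had 15 and 36 reads and was no longer called (log2 ratio 1.14, adjusted p = 0.286). In 4 of the other 5 alternatives the adjusted p was between 0.0217 and 0.0279, and without a minimum of reads it was 0.0429.

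The partners of Hyou1 were not called. Hspa5 had a log2 ratio of 0.13, with an interval from -0.02 to 0.28, Hsp90b1 0.08 (-0.27 to 0.43) and Dnajb11 -0.09 (-0.42 to 0.25). Hspa5 held 97.7% of the reads it shared with Hyou1 in replicate 1 and 94.5% in replicate 2. It outnumbered Hsp90b1 as well, with 84.0% and 84.4% of their reads. Over the 69 members tested, 35 had a log2 ratio above 0, and the median of the 69 was 0.01, beside 0.00 over all genes tested. Hspa8 was at -0.16 (-0.27 to -0.04) and Hspb6 at 0.36 (0.06 to 0.65). Neither was called (adjusted p = 0.212 and 0.337, exact binomial test), although their intervals left out 0.

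**Figure D3:**
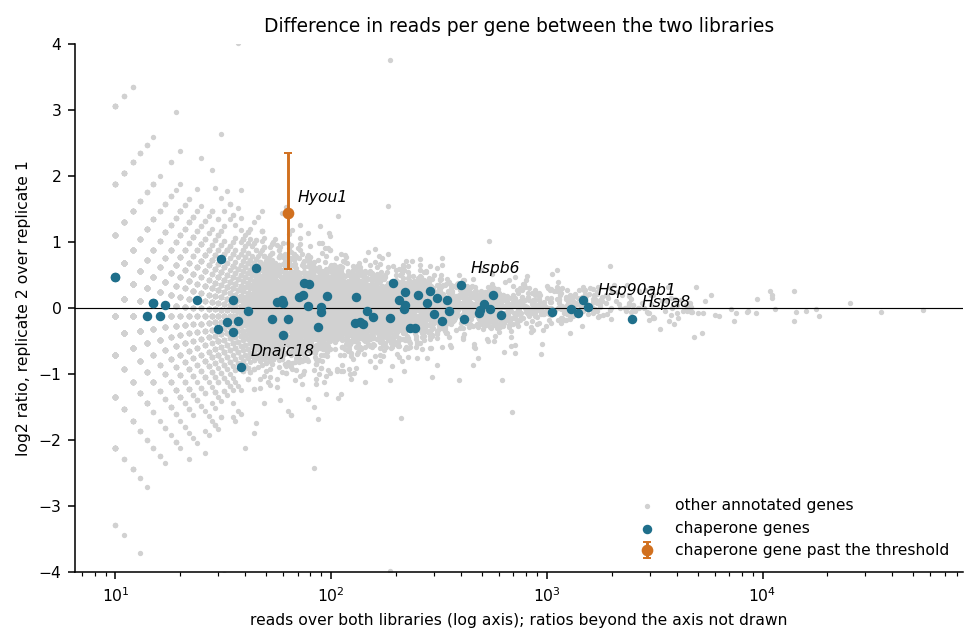
Log2 ratio of reads, replicate 2 over replicate 1, against the reads of both libraries (log axis), scaled by library totals; grey points are other annotated genes, blue points chaperone genes, and the orange point with its exact 95% interval is Hyou1, at 1.44. The chaperone genes sit around 0 and narrow with depth like the rest.

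The response element of endoplasmic reticulum stress, CCAAT and CCACG with 9 free bases between them, was searched on both strands of the same windows. It was found in the windows of 3 members, Hspa5, Hsp90b1 and Dnajc3, which inhibits a kinase of that response and acts as a J protein. Among all 27025 genes 37 held it, or 0.137%. The stretches are shown because so few genes held the element, with the match in capitals. The window of Hsp90b1 held another match, on the other strand.
Hspa5 (chr2:34772007-34772061, plus strand): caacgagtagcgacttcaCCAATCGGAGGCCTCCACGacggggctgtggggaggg
Hsp90b1 (chr10:86705620-86705674, minus strand): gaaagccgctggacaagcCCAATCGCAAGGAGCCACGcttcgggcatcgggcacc
Dnajc3 (chr14:118937809-118937863, plus strand): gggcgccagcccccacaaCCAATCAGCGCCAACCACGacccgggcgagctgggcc
None of these 3 genes was called between the libraries.

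Partners of the chaperones were read from a list of 34 cochaperones and regulators and 17 genes of folding and stress in the endoplasmic reticulum. Of the first, 32 were tested and 0 were called by the exact binomial test with Benjamini-Hochberg adjustment; 2 had an unadjusted p under 0.05, Cryab and, named after its value was seen, Pfdn5. Cryab, the small heat shock protein alpha B-crystallin, led with 671 and 759 CPM, Fkbp4, an HSP90 cochaperone, had 575 and 635, Bag1 311 and 335 and Cdc37, which brings kinases to HSP90, 292 and 317.

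Of the genes of the endoplasmic reticulum, 15 were tested, 1 was called lower in replicate 2 and 0 higher, beside 1.69% of all genes called in either direction. P4hb, a protein disulfide isomerase, led with 456 and 494 CPM. Herpud1, a part of the machinery that removes misfolded proteins from the endoplasmic reticulum, had 377 and 258 reads, or 426 and 269 CPM, a log2 ratio of -0.66 (-0.90 to -0.43, adjusted p = 2.74e-06, exact binomial test). Hyou1 and Herpud1, both induced by stress of the endoplasmic reticulum, were thus called in opposite directions, Hyou1 not with annotated models alone. Over the 15 genes tested, 9 had a log2 ratio above 0, and their median was 0.15. Pdia6 had 176 and 214 CPM and Xbp1, a transcription factor of that response, 155 and 146, and neither was called.

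Reads were also sorted by how they matched the annotation. Annotated models held 88.4 ± 0.262% of the members' reads (SD, n = 2), incomplete models 4.22 ± 0.0685%, new combinations of known splice sites 3.00 ± 0.0285%, models with a new splice site 3.06 ± 0.0820% and genomic models, which overlap the gene without matching its splicing, 1.34 ± 0.140%. Over all annotated genes the annotated share was 78.8 ± 0.0450% and the incomplete share 8.94 ± 0.0716%. Of the incomplete reads of members, 78.4 ± 0.346% lacked the 5′ part. Across the 52 members with at least 20 reads in each library, incomplete share and model length had a Spearman's rho of 0.383, given as a description over genes that share the same libraries.

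Splice forms were compared among usable reads, meaning annotated models plus any unannotated one that both libraries supported with 5 reads or more. Of 49 members whose usable reads reached 20 in both, 11 had a leading form under 90%, or 22.4%, while 30.5% of all 4331 genes did. The median leading share was 99.6% in members and 98.3% in all genes. Hspa8, Hspa9, Hsp90ab1, Hspb8 and Cct7 were among the members with 100% of usable reads on the same form in both libraries. Usable reads leave out incomplete models, and with those counted as forms the leading share was 98.8% for Hspa8 and 93.1% for Hsp90ab1. No leading form differed between the libraries by Fisher's exact test after Benjamini-Hochberg adjustment, with 0 of 49 members called and 0.0231% of all genes. At an unadjusted p under 0.05 there was 1, Dnajc14 (95.2% and 78.3%, unadjusted p = 0.00124 by Fisher's exact test, adjusted p = 0.671).

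**Figure D4:**
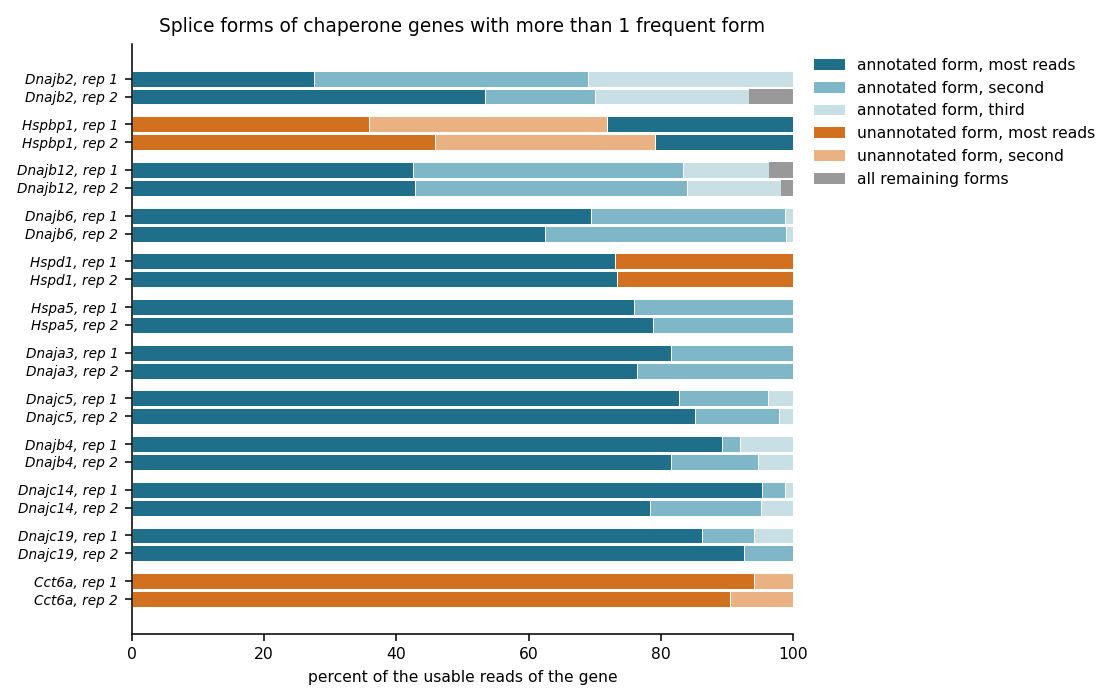
Percent of the usable reads of a gene on its 3 most frequent splice forms, for each library, in the 11 members with a leading share under 90% and in Cct6a; blue shades are annotated forms and orange shades unannotated ones, ordered by mean share, and grey is the rest. Hspd1 divides 73.0% to 27.0% and 73.3% to 26.7%, and both forms of Cct6a are unannotated.

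Several of these forms end in different coding sequence. Dnaja3-202 held 181 and 174 reads and Dnaja3-201 held 41 and 54, so the leading form made up 81.5% and 76.3%. Dnaja3-201 has an extra exon of 117 bases that starts at chr16:4705844, and its protein of 480 residues ends there, while Dnaja3-202 skips it and encodes 453 residues. Over all classes of models, 187 and 183 reads skipped the exon and 45 and 58 entered it. The last coding bases that each form does not share are printed here, as they are where the proteins differ, with the stop codon in capitals; both come from the GENCODE transcripts on mm10.
Dnaja3-202 (chr16:4706568-4706590): gaaagcggtcaactggaaacTAA
Dnaja3-201 (chr16:4705844-4705947): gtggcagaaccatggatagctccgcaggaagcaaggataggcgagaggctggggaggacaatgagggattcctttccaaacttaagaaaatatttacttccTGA

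Dnajb6 is known for a long form that enters the nucleus and a short form that stays in the cytosol. Dnajb6-201, with 10 exons and 365 residues, had 59 and 60 reads, and Dnajb6-203, with 8 exons and 242 residues, had 25 and 35. The long form thus made up 69.4% and 62.5%. The 8th exon of the short form reads on where the long form removes the intron chr5:29766396-29781129. Shown are the end of the short form after the shared part and the last exon's coding bases of the long form.
Dnajb6-203 (chr5:29766396-29766430): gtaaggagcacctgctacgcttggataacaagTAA
Dnajb6-201 (chr5:29785031-29785113): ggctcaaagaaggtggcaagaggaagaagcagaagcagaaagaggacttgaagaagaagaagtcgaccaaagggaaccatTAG

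Dnajb2 likewise has a short and a long protein, of 277 and 324 residues. Its 3 leading forms were Dnajb2-202 with 8 and 16 reads, Dnajb2-207 with 12 and 5 and Dnajb2-210 with 9 and 7. The first and second encode the short protein and differ by the intron chr1:75236590-75236851, and the libraries disagreed on which had more reads. The intron at chr1:75243662-75244793, whose removal gives the short protein, was spliced in 25 and 23 reads and read through in 15 and 15.
Dnajb2-202 (chr1:75244794-75244804): atgtgttcTGA
Dnajb2-210 (chr1:75243662-75243813): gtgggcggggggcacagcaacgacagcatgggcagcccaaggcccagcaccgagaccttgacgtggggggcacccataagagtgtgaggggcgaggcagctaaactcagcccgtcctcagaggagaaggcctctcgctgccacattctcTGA

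Dnajb12 used alternative donors at an intron near the end of its coding sequence. Dnajb12-205 had 23 and 24 reads, Dnajb12-204 had 22 and 23 and Dnajb12-201 had 7 and 8. The donor of Dnajb12-204 lies 54 bases and that of Dnajb12-201 48 bases beyond that of Dnajb12-205. Both later donors give a protein of 376 residues and the first gives 378, with the ends printed here.
Dnajb12-205 (chr10:59897491-59897520): actatgaaatccctggagaatttttggTGA
Dnajb12-204 (chr10:59896448-59896471): gtgcaggcctccctgcatggaTAG
The libraries gave almost the same shares, 42.6% and 42.9% for Dnajb12-205 and 40.7% and 41.1% for Dnajb12-204.

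Dnajc5 encodes a J protein of secretory vesicles. Dnajc5-201 had 43 and 40 reads, or 82.7% and 85.1%. Dnajc5-204, which M21 annotates as a target of nonsense-mediated decay, had 7 and 6. It contains an extra exon of 75 bases from chr2:181548926 whose first bases end the reading frame early, as the comparison shows.
Dnajc5-204 (chr2:181548926-181548936): gagggcacTGA
Dnajc5-201 (chr2:181549273-181549376): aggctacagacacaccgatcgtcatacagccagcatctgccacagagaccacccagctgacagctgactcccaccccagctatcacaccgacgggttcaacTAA

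In other genes the forms differed before the start codon and kept the same annotated protein. Hspa5-201 had 495 and 604 reads and Hspa5-202 had 157 and 162, so the leading form made up 75.9% and 78.9%. Hspa5-202 retains the intron of 82 bases at chr2:34772147-34772228, which lies before the coding start at chr2:34772322. Over all classes the intron was spliced in 496 and 605 reads and retained in 157 and 162.

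Hspd1 had 414 and 442 reads on the annotated form Hspd1-201 and 153 and 161 on an unannotated form. The unannotated form made up 27.0% and 26.7% of usable reads. It differs in the donor of the first intron, chr1:55086942-55087988 in place of chr1:55086942-55087778 on the minus strand, which shortens the exon by 210 bases before the coding start at chr1:55086939. That intron is annotated, in another combination. Hspbp1, an exchange factor that removes ADP from HSP70, used 3 acceptors before its coding start. A pair of unannotated combinations held 14 and 22 reads and 14 and 16, and Hspbp1-201 held 11 and 10. The first acceptor lies 87 bases from that of Hspbp1-201 and the second only 3 bases.

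Dnajc14, a J protein of the endoplasmic reticulum, used donors 31 bases apart before its coding start, with 80 and 65 reads on Dnajc14-202 and 3 and 14 on Dnajc14-201. Dnajc19, a J protein of the mitochondrial inner membrane, had 44 and 62 reads on Dnajc19-202, of 116 residues, and 4 and 5 on Dnajc19-201, of 157 residues, which splices to a far exon across 20660 bases. Dnajb4 had 33 and 31 reads on Dnajb4-202, or 89.2% and 81.6% of its usable reads. Hyou1, below the minimum in replicate 1, divided nearly evenly between Hyou1-204 with 8 and 16 reads and Hyou1-201 with 7 and 17, whose first introns have donors 342 bases apart. Both of these Hyou1 forms had more reads in replicate 2.

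**Figure D5:**
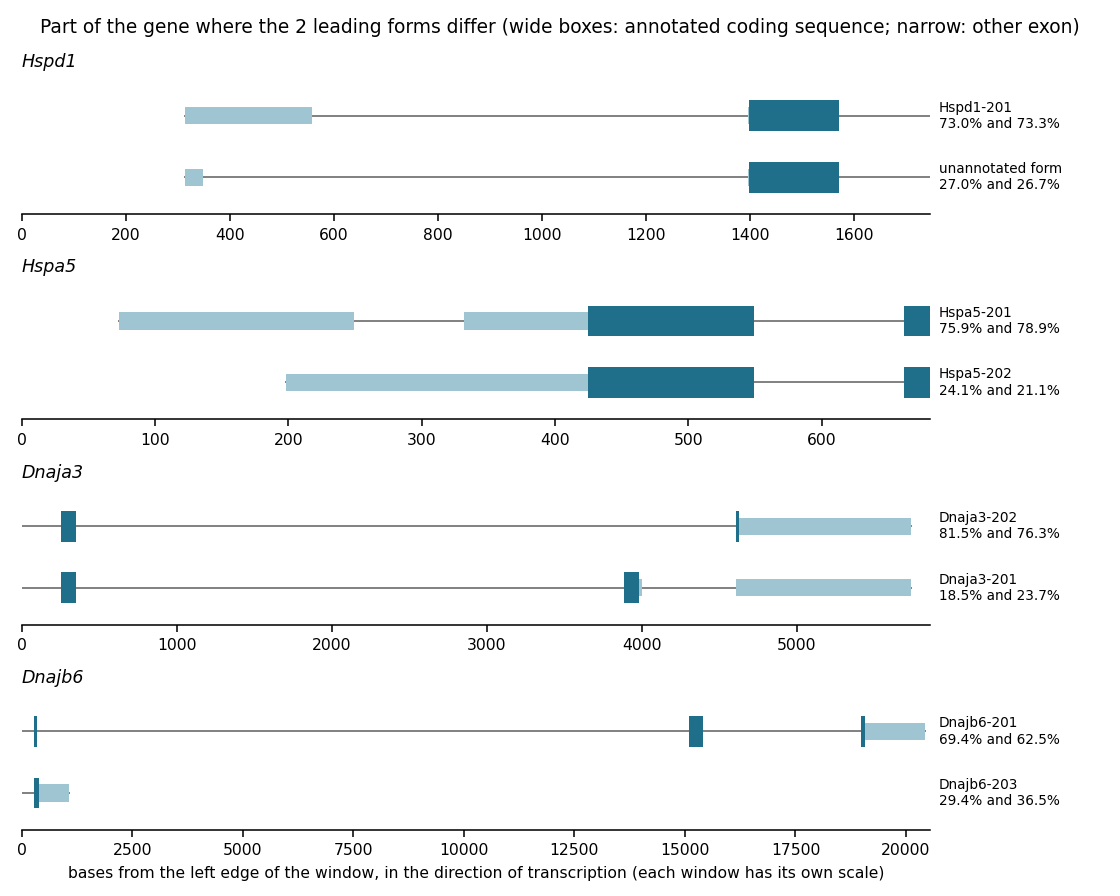
Parts of Hspd1, Hspa5, Dnaja3 and Dnajb6 in which the leading forms differ, to scale in bases along the direction of transcription from the left edge of each window; wide boxes are annotated coding sequence, narrow boxes other exon sequence, and lines introns. The coding sequence of Hspd1-201 is drawn on the unannotated Hspd1 form too, and the percentages are shares of usable reads in replicates 1 and 2.

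Cct6a was the member with the lowest annotated share among those with 20 reads or more in each library. It had 158 and 186 reads and 0 on annotated models. The 7 Cct6a transcripts of M21 include 0 with a coding sequence. A form of 12 introns held 144 and 160 reads, or 94.1% and 90.4% of usable reads, and a second held the other 9 and 17. Of the 12 introns of each form 11 are annotated, and the remaining one, chr5:129794561-129844936 in the leading form, is 50376 bases long. The annotated transcript Cct6a-202 has an intron of 50470 bases there, and the measured one begins 61 bases later and ends 33 bases earlier. In the second form the intron begins 105 bases later than in Cct6a-202 and ends at the same base.

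Dnajc4 had 13 and 15 reads on an unannotated form and 4 and 8 on Dnajc4-201. That form has an unannotated intron of 276 bases at chr19:6992273-6992548 on the minus strand, which over all classes was spliced in 16 and 19 reads and read through in 3 and 1. Annotated models held 21.3 ± 4.39% of all Dnajc4 reads and 22.2 ± 4.75% of those of Hspbp1, the lowest shares after Cct6a among members of that depth.

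Genomic reads differed between the libraries in 3 of the 52 members with at least 20 reads in each library. These were Hspb7, Dnajc5 and Hspb6 (Fisher's exact test, adjusted p = 1.01e-11, 1.30e-05 and 0.0455, Benjamini-Hochberg adjustment over 5382 genes). Of all 5382 genes tested, 112 or 2.08% were called, and the difference between these shares was not tested. Hspb7 had 0 genomic reads in replicate 1 and 44 in replicate 2. Dnajc5 had 22 and 0, and Hspb6 had 0 and 13. With all 3, the libraries put single-exon reads in different classes. Hspb7 had 34 single-exon reads classed as incomplete in replicate 1 and 0 in replicate 2, so that its single-exon reads of both classes were 34 and 44. Those of Dnajc5 were 22 and 22 and those of Hspb6 were 5 and 13. Each library was processed alone, and the total reads of these genes were not called, with adjusted p of 1.00 for Hspb7, 0.996 for Dnajc5 and 0.337 for Hspb6 in the exact binomial test.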

How the data were processed

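The deposited tables hold read counts per transcript model as whole numbers. Per the file headers the models are named by TALON; per the deposited text the authors counted each library alone, on mm10 with GENCODE M21. The aligner and versions are not given in the sources used. Other deposited columns, exon numbers, lengths and positions, were used as given. Each library was processed alone, so a read cluster can be classed differently in each, and unannotated forms were joined across libraries on strand and introns. Spike-in reads, 12223 of 896941 and 12825 of 972159 reads, were left out.

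Reads of all classes were summed per gene. Libraries were compared by two-sided exact binomial tests on genes with at least 10 reads, and forms and classes by Fisher's exact test with at least 20 reads per library (scipy 1.17.1), adjusted by Benjamini-Hochberg over all genes with a threshold of 0.05. These tests compare the 2 libraries, not conditions. With 167 of 9907 genes called, the libraries differed by more than sampling noise. Intervals are exact Clopper-Pearson at 95%; intervals and floors cover counting error only. The tests were checked on simulated data with counting error as the only noise. That check does not cover the further difference between these libraries. Alternatives were totals by TMM (edgeR 4.0.16), annotated models alone, no genomic reads, incomplete models counted as forms, all overlapping models (bedtools 2.31.1), no minimum, a length correction in 10 bins, higher minimums and leaving out each replicate. Copies were found with BLAST+ 2.17.0 (blastn).

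The members, lists, pairs and tests were chosen with earlier results of these data known. The text names all HSP90 and chaperonin genes among the members, pairs and called genes. It also names the highest of each role group (5 of HSP70, 4 small, 3 of each J class). Further named are members with 50 or more usable reads whose leading form was under 90%, and the 6 most frequent unannotated forms. The 4 highest of each partner list are named, and Trap1 was added as an HSP90 outside the symbols. Protein sequences were not used here.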

Additional observations from a re-analysis of the deposited data

Results flagged for a closer look

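Reads outside the member genes' own models were flagged where both libraries held more than the 3 reads that a count of 0 allows. Gm15459, the near-identical copy of Hspa8, held 2465 reads over both libraries, 1207 and 1258. Hsp25-ps1, the copy of Hspb1, held 66, 35 and 31. Models antisense to Dnajb6 held 25 reads, 12 and 13, beside 105 and 113 on Dnajb6. Models antisense to Dnajc18 held 27 reads, 10 and 17, beside 24 and 14 on Dnajc18. Those antisense to Hsp90b1 held 9 reads, 4 and 5, and those antisense to Hspa4 also held 9, 4 and 5. The tables hold no reads, so the source of these counts was not tested.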

How the results depend on the processing

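Of 121 shares of pairs and CCT subunits under an alternative, 114 kept both their side of an even split and their side of the threshold, and 2 that passed in neither case crossed the even split: Dnaja1 in its pair with Dnaja4, 51.0% without replicate 2 against 46.2%, and Tcp1, 11.8% without replicate 1 and 13.7% without replicate 2 against 12.8%. With annotated models alone, Hspa9 held 60.0% of its pair with Hspd1 and passed, Cct3 held 10.7% of the CCT reads and no longer passed, and no member was called in the comparison of reads, 0 in place of 1 (Hyou1). That setting leaves out the unannotated Hspd1 and Cct6a forms. It also scales CPM to the annotated-model reads of each library, so a sum can rise although reads were left out. On that scale the summed CPM was 12585 for all members, 4032 for HSP70 and HSP110 and 1195 for HSP90. J proteins of class A, B and C summed to 1088, 647 and 1292. Small heat shock proteins summed to 1631, CCT to 1961 and the mitochondrial chaperonin to 716. Without genomic reads, CPM was scaled to the reads that remained. The sums were then 11002 for all members, 1064 for HSP90, 1816 for CCT and 806 for the mitochondrial chaperonin. With the reads of near-identical copies added, an alternative chosen after seeing the data, the sums were 12167 for all members and 4587 for HSP70 and HSP110, and Hspb6 held 55.3% of its pair with Hspb1, no longer passing. Without either replicate, Dnaja1 held 41.5% to 51.0% of its pair with Dnaja4, and Cct8 10.5% to 11.2% of the CCT reads; both passed without replicate 1. With incomplete models counted as forms, 5 leading shares moved beyond the spread between libraries: Hsp90ab1 to 93.1%, Hspa8 to 98.8%, Hspb7 to 96.3%, Tcp1 to 94.1% and Hspd1 to 70.8%. With annotated models alone, 2 did, Hspd1 to 100% and Cct5 to 99.7%. TMM totals and overlapping models moved no count or sum beyond the spread between libraries. No paired analysis was possible because there was 1 group. Depth limits members under 10 reads, which were not tested.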
